A study of Mus musculus with 20 samples.

Results

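The genes described here build and process the cornified envelope, the cross-linked protein shell that replaces the cell membrane of a keratinocyte at the surface of the epidermis. They were chosen by name: every gene whose symbol begins with Sprr or Lce, and Lor, Ivl, Flg, Flg2, Hrnr, Rptn, Tgm1, Tgm3, Casp14, Klk5, Klk7, Stfa1, Stfa2 and Stfa3. The name rule gave 52 of the 35579 genes in the deposited skin data. A total of 48 of them reached 1 CPM (counts scaled to library size) in at least 3 skin libraries and are described. The 4 that did not were Sprr2b, Sprr2f, Sprr3 and Sprr2c-ps. Just inside that limit was Sprr2j-ps, whose third-highest library held 1.09 CPM, and just outside it were Sprr2b at 0.916 CPM and Sprr2f at 0.82 CPM.

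As keratinocytes leave the basal layer they stop dividing and make envelope precursors in a fixed order. Involucrin and the plakins form a first scaffold, loricrin and small proline-rich (SPRR) and late cornified envelope (LCE) proteins reinforce it, and transglutaminases join them by covalent bonds. Filaggrin and its relatives aggregate keratin filaments and are later cut into amino acids that hold water, while kallikrein proteases cut the junctions that hold surface cells together. In wounds and inflamed skin, keratinocytes are known to raise many SPRR genes and the LCE3 genes together with the injury keratins.

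The study measured RNA in wild-type (WT) C57BL/6J mice whose left hindlimb was irradiated with 35 Gy of electrons (ElectronFlash accelerator) in the FLASH modality, which uses an ultra-high dose rate, or in the conventional modality (CONV), or was sham treated without irradiation. Skin and muscle of that limb were taken after 70 days. Skin had 3 sham, 4 FLASH and 3 CONV libraries, and muscle had the same numbers. The design asked how late tissue responses compared between the modalities. The labels give replicate numbers without naming animals, so the p-values reflect only how far these samples differ within a group, and that spread may be technical. Mouse sex and age are not given in the sources used here.

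Skin libraries held 24396463 to 33250762 estimated counts, and the 52 genes took 0.157% to 2.23% of them. Groups follow the record under which each file was deposited. The file of sham 3 carried the library name of a FLASH library, and that of FLASH 1 the name of a sham library, while no CONV file was affected. A comparison of CONV with the other 7 libraries is therefore the same under both readings. CONV 3 stood apart: its summed CPM of 6 suprabasal keratinocyte markers was 1350, against 6100 to 18700 in the other 9 libraries, and its summed CPM of 6 fibroblast markers was 29800, against 5820 to 19300. In bulk tissue, fewer cells of a type and less RNA per cell cannot be told apart. The tissue pieces also differed in muscle and hair content within groups. Summed CPM of 8 fast skeletal muscle markers was 34.1 to 21800 in sham skin, 116 to 20100 in FLASH and 240 to 2520 in CONV. That of 16 hair shaft and inner root sheath markers was 15.4, 9190 and 1130 in sham skin and 11600, 660 and 4620 in CONV. In FLASH it was 16.1 and 404 in FLASH 1 and FLASH 2, and 13300 and 8690 in FLASH 3 and FLASH 4. The part of hair content in the differences between FLASH libraries described below was not tested.

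On chromosome 3 (GRCm38, positions 92080271 to 93399442), 44 of the 52 genes lay within 1319 kb, the epidermal differentiation complex. The other 8 were Casp14 on chromosome 10 (78711991 to 78718294), Tgm1 on chromosome 14 (55700009 to 55713926), the 3 stefin genes on chromosome 16 (36276951 to 36455392), Tgm3 on chromosome 2 (130012349 to 130050399), and Klk7 and Klk5 on chromosome 7 (43811294 to 43851181). The RefSeq table of promoter windows (GRCm38.p6, 250 bases before to 50 after each start) matched 48 of the 52 symbols. Below are the 120 bases before the RefSeq start of 5 genes, chosen because they stand for the patterns described later. Sprr1b and Lce3c were near 0 in sham skin, and Lor varied little outside CONV 3. Flg and Flg2 are neighbours whose CONV means lay above and below sham, respectively, though both were lowest in CONV 3. Sequences run 5′ to 3′ along the gene's strand, and capitals mark the AP-1 motif TGANTCA and the TATAA motif.
Sprr1b, chr3:92438780-92438899, minus strand: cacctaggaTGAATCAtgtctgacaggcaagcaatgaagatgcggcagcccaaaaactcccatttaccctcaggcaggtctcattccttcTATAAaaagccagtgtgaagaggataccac
Lor, chr3:92083143-92083262, minus strand: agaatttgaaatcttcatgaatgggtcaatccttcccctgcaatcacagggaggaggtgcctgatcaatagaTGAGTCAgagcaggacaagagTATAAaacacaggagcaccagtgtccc
Flg, chr3:93273426-93273545, plus strand: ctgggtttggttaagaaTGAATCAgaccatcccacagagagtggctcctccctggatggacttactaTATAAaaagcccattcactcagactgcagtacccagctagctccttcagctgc
Flg2, chr3:93197153-93197272, plus strand: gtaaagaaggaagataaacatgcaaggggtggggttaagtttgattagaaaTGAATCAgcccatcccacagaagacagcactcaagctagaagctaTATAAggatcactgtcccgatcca
Lce3c, chr3:92944366-92944485, plus strand: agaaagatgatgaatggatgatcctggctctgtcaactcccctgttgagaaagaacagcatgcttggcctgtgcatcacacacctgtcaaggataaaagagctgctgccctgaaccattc

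AP-1 is the family of FOS and JUN dimers. Searched on both strands over the 250 bases before the start, TGANTCA was in 14 of the 48 matched genes (29.2%) and in 6.75% of all 32851 windows. It was in 9 of 14 Sprr genes, in both Lor and Ivl, in 3 of 4 filaggrin-type genes (Flg, Flg2 and Rptn), in 0 of 20 Lce genes and in none of the stefin, protease or transglutaminase genes. TATAA was in 24 of the 48 (50.0%) and in 22.8% of all windows. The KLF motif CACCC was in 23 (47.9%) and in 52% of all windows. No AP-1 match overlapped a TATAA match in these genes. A match is a description of letters and not a site of binding. Flg and Flg2 both held an AP-1 and a TATAA match.

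The 48 genes fell into a part that was present in all 10 libraries and a part that was near 0 in sham skin. Sham libraries had 30, 32 and 32 of the 48 genes above 1 CPM. FLASH 1 and FLASH 2 had 30 each, FLASH 3 had 37 and FLASH 4 had 48. The CONV libraries had 47, 48 and 48. FLASH 1 and FLASH 2 were near sham in this count and FLASH 4 near CONV, but the filter partly fixes the count. Genes near 0 in sham reached 1 CPM in 3 libraries only through FLASH and CONV libraries, so the count does not class libraries. CONV 2 held the highest value of 39 of the 48 genes, and CONV 3 the lowest of 20. Summed over all 52 genes, sham libraries held 5613, 5918 and 10590 CPM and FLASH libraries 7154, 5021, 10040 and 10440. CONV 1 and CONV 2 held 12430 and 25450 CPM and CONV 3 held 1625, so CONV spanned both the highest and the lowest totals.

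**Figure D1:**
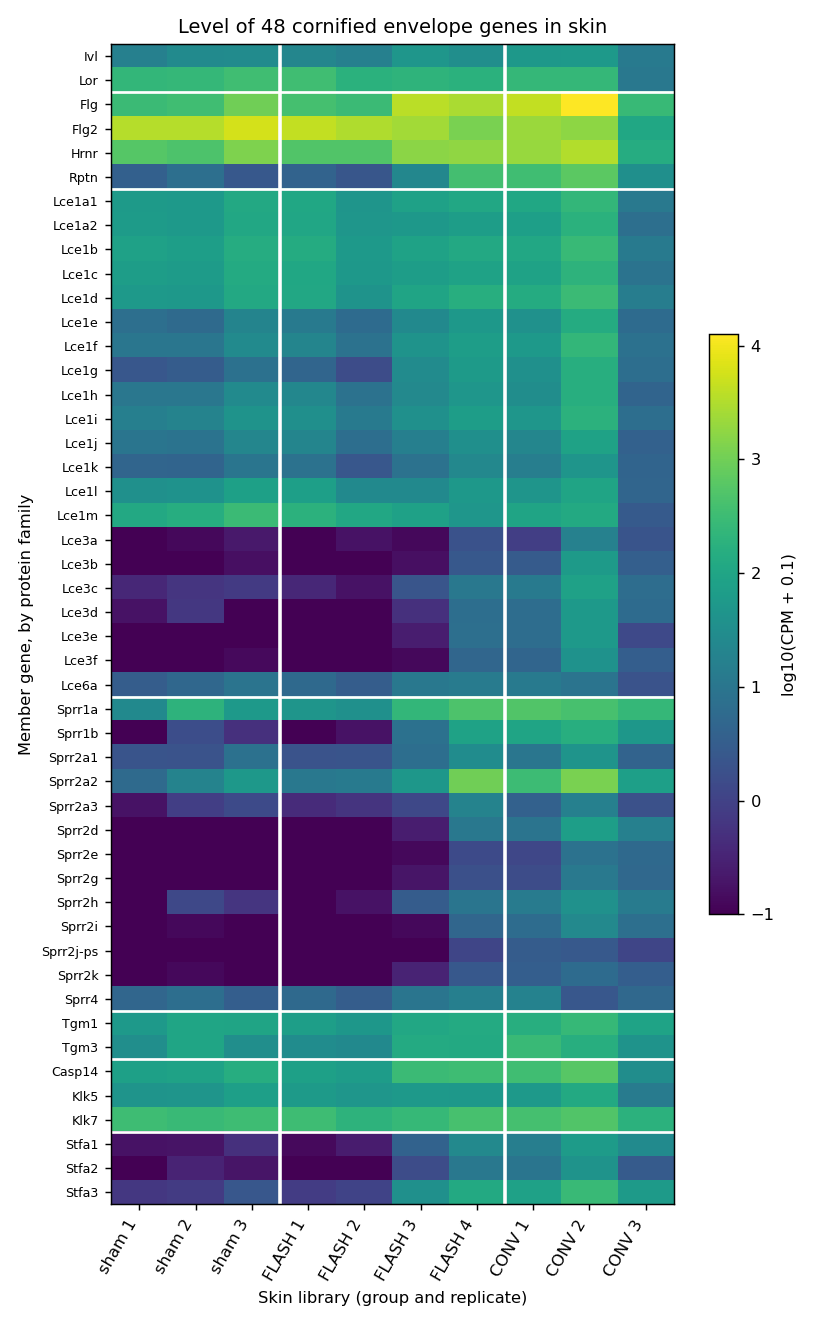
Level of the 48 described genes (rows, by protein family) in the 10 skin libraries (columns, group and replicate), as log10 of CPM plus 0.1. The Lce3, most Sprr2 and stefin rows are dark in sham, FLASH 1 and FLASH 2 and light in FLASH 4 and CONV, while Lor, Flg2 and most Lce1 rows are lit in all libraries and dimmest in CONV 3.

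Levels of different genes can be compared only per length, as TPM, the length-corrected unit. In sham skin the highest group means of TPM were 1080 ± 877 for Flg (SD, n = 3), 644 ± 331 for Lce1m, 411 ± 190 for Lce1b and 406 ± 168 for Flg2. In CONV they were 9280 ± 10000 for Flg, 1460 ± 1490 for Sprr2a2, 1050 ± 384 for Sprr1a and 885 ± 613 for Stfa3. Stfa3 was at 9.59 ± 8.59 in sham. The order of the leading genes thus differed between the groups, but the SD exceeded the mean for Flg and Sprr2a2 in CONV, and neighbours in the order did not differ beyond them.

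Each comparison was tested over 20026 genes with edgeR's quasi-likelihood test and Benjamini-Hochberg adjustment at a threshold of 0.05. Of the 52 genes, 50 passed the low-count filter, Sprr3 and Sprr2c-ps did not, and none of the 50 passed the test in any of 4 comparisons. CONV against sham called 0.0% of all genes, FLASH against sham 0.0% and CONV against FLASH 0.0%. CONV against the other 7 libraries called 1.65% of all genes, 1.58% as higher and 0.0699% as lower, and 0 of the 50. The smallest adjusted p among the 50 was 0.129 for CONV against sham, 1.00 for FLASH against sham, 0.275 for CONV against FLASH and 0.0543 for CONV against the other 7.

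At an unadjusted p under the same threshold, edgeR's test gave 23 of the 50 genes for CONV against sham (20.1% of all genes), 6 for FLASH against sham (0.659%), 6 for CONV against FLASH (12.7%) and 16 for CONV against the other 7 (23.4%). DESeq2, the second tool, called 15 of the 50 for CONV against sham (8.14% of all genes), 1 for FLASH against sham (0.02%), 0 for CONV against FLASH (2.28%) and 1 for CONV against the other 7 (10.3%). The 15 were Flg, Rptn, Sprr1b, Sprr2d, Sprr2e, Sprr2f, Sprr2g, Lce1g, Lce3a, Lce3c, Lce3e, Lce3f and the 3 stefins. FLASH 4 decided part of these counts: without it edgeR called 20 of 49 genes for CONV against the other 7 (7.31% of all genes) and 3 for CONV against sham (0.447%). Without CONV 1, edgeR called 1 gene, Sprr2f, for CONV against the other 7 (6.47% of all genes).

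In CONV against sham, 23 of the 50 genes lay higher in every CONV library than in every sham library, as did 13.6% of all genes. Flg2 lay lower in every CONV library, as did 14.3% of all genes. The fold change was above 0 for 46 of the 50 and for 50.6% of all genes, and the median log2 fold change was 2.56 against 0.01 over all genes. Several of these genes passed the filter only through the group in which they were high, so these counts describe the list and do not test it. In FLASH against sham no gene of the list was separated in either direction, against 0.829% of all genes higher and 0.739% lower. The fold change was above 0 for 42 of the 50 (50.4% of all genes), and the median log2 fold change was 1.27. These comparisons share the sham libraries. Without FLASH 4 the FLASH median was 0.14, and without CONV 2 the CONV median was 1.76.

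Lor and Ivl encode loricrin, the bulk protein of the envelope, and involucrin, its early scaffold. Lor measured 241, 248 and 349 CPM in sham skin, 346, 181, 208 and 182 in FLASH, and 254, 251 and 10.9 in CONV. All libraries but CONV 3 lay within 181 to 349 CPM, and the groups overlapped. Ivl measured 16.8, 27.8 and 29.0 CPM in sham skin, 21.6, 16.6, 46.9 and 33.1 in FLASH, and 52.6, 56.8 and 12.1 in CONV. CONV 1 and CONV 2 were above every other library and CONV 3 was below every other library. The log2 fold change of Ivl against sham was 0.72 ± 0.56 (SE; n = 3 CONV and 3 sham; edgeR adjusted p = 0.476), and that of Lor was smaller than its SE.

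Flg encodes profilaggrin, Flg2 and Hrnr its relatives filaggrin-2 and hornerin, and Rptn repetin, a less abundant member of the same fused S100 family. Flg2 measured 3360, 3410 and 5930 CPM in sham skin, 4250, 3110, 2470 and 1200 in FLASH, and 2190, 1750 and 108 in CONV. Every CONV library was below every sham library, and FLASH 4 was below CONV 1 and CONV 2. The mean was 0.319 times that of sham in CONV, a log2 difference of -1.65 ± 0.85 (SE; edgeR adjusted p = 0.303), and -1.11 without CONV 3.

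Flg measured 298, 345 and 1010 CPM in sham skin, 391, 302, 3760 and 2900 in FLASH, and 4230, 12600 and 276 in CONV. FLASH 3, FLASH 4, CONV 1 and CONV 2 were above all other libraries, and CONV 3 was below all of them. Against sham the log2 difference was 3.37 ± 1.38 in CONV (edgeR adjusted p = 0.223, n = 3 against 3), or 2.03 without CONV 2, and 1.74 ± 1.25 in FLASH (edgeR adjusted p = 1.00, n = 4 against 3). All 10 annotated Flg transcripts had a higher group mean in CONV than in sham, by 4.57 to 12.9 times. These means rested on CONV 1 and CONV 2, since CONV 3 exceeded the highest sham library for none of the transcripts. The transcripts share reads, so they are not 10 separate results. The TPM of Flg is raised by 6 annotated transcripts under 1000 bases, so its share of TPM depends on how reads were divided among them.

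Hrnr followed Flg across libraries, with 563, 484 and 1290 CPM in sham skin, 530, 531, 1630 and 1820 in FLASH, and 2060, 3330 and 146 in CONV. Its log2 difference of CONV from sham was 1.24 ± 0.94 (edgeR adjusted p = 0.464), and 0.50 without CONV 2. Rptn separated the groups more widely. It measured 3.64, 7.33 and 2.43 CPM in sham skin, 4.09, 2.25, 23.1 and 373 in FLASH, and 341, 646 and 35.3 in CONV. Every CONV library was above every sham library, FLASH 4 was at the level of CONV, and FLASH 1 and FLASH 2 were at the level of sham. The log2 difference of CONV from sham was 6.25 ± 2.09 (edgeR adjusted p = 0.169) and that of FLASH was 4.49, or 1.14 without FLASH 4.

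**Figure D2:**
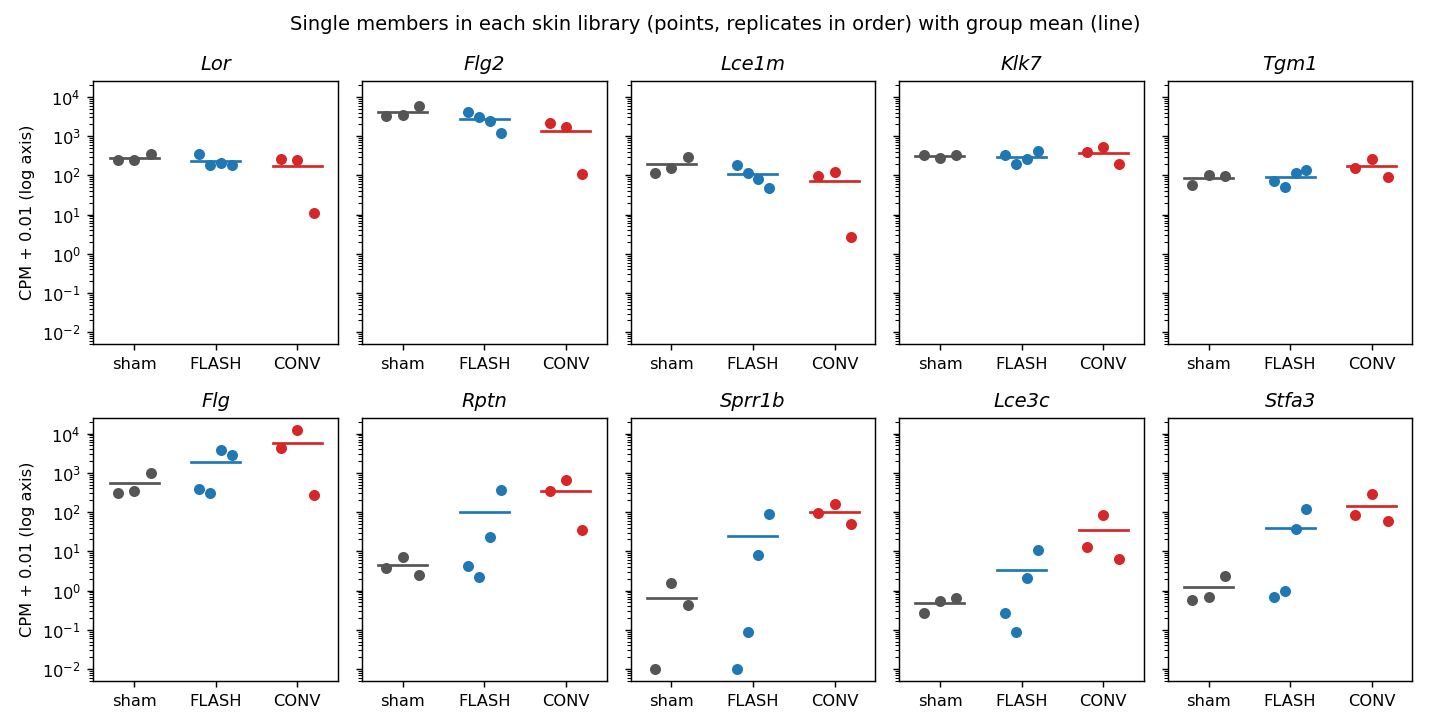
CPM plus 0.01 on a log axis for 10 single genes in sham (n = 3), FLASH (n = 4) and CONV (n = 3) skin; points are libraries in order of replicate and lines are group means. The upper row shows genes at similar levels in most libraries, with CONV 3 low for Lor, Flg2 and Lce1m; the lower row shows genes for which FLASH 3 and FLASH 4 lie above FLASH 1 and FLASH 2.

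A ratio of 2 genes within a library does not depend on the library's scaling. The following pairs were chosen after their values were seen and are given without a test. Flg over Flg2 was 0.0886, 0.101 and 0.171 in sham skin, 0.0918, 0.0971, 1.52 and 2.43 in FLASH, and 1.93, 7.19 and 2.55 in CONV. FLASH 1 and FLASH 2 were at sham values and the other 5 irradiated libraries were all above 1. CONV 3, low in both genes, was among these 5. Hrnr over Flg2 was 0.142 to 0.218 in sham skin, 0.125 and 0.171 in FLASH 1 and FLASH 2, 0.659 and 1.52 in FLASH 3 and FLASH 4, and 0.943 to 1.90 in CONV.

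**Figure D3:**
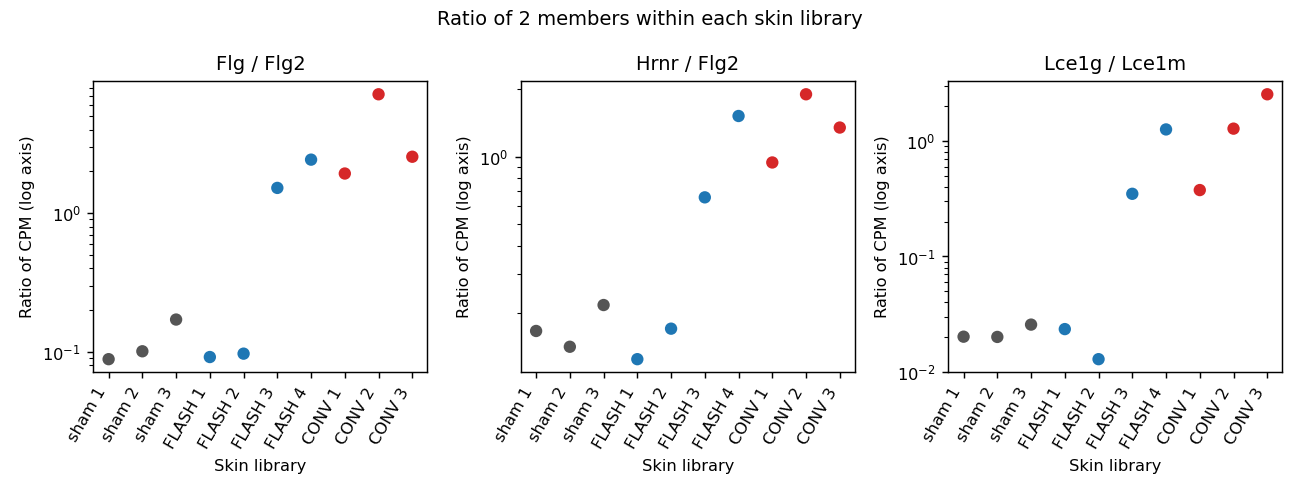
Ratios of CPM of Flg to Flg2, Hrnr to Flg2 and Lce1g to Lce1m in each skin library, on log axes (grey sham, blue FLASH, red CONV). In all 3 panels the sham libraries, FLASH 1 and FLASH 2 form a low set, and FLASH 3, FLASH 4 and the CONV libraries lie above it.

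The Lce proteins are small envelope reinforcers, coded by tandem gene copies. Group means of TPM in sham skin ran from 11.5 (Lce1g) to 644 (Lce1m) over the Lce1 genes and from 0 (Lce3e) to 2.35 (Lce3c) over the Lce3 genes. In CONV the ranges overlapped, at 68.4 (Lce1k) to 468 (Lce1d) for Lce1 and 25.7 (Lce3a) to 129 (Lce3c) for Lce3. Summed over the 13 Lce1 genes other than Lce1m, the level was 423, 398 and 863 CPM in sham skin, 772, 318, 595 and 960 in FLASH, and 814, 2300 and 98.4 in CONV. CONV 2 was highest, CONV 3 lowest, and the groups overlapped. The 4 Lce genes with the highest mean TPM over the skin libraries were Lce1b, Lce1m, Lce1d and Lce1a1.

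Lce1m, whose sequence is nearly unique among the copies (99.1% of its 31-base words), measured 117, 150 and 302 CPM in sham skin, 188, 114, 81.6 and 47.9 in FLASH, and 95, 124 and 2.67 in CONV. Its log2 difference of CONV from sham was -1.36 ± 1.02 (edgeR adjusted p = 0.462), and -0.81 without CONV 3. Lce1d measured 55.9, 52 and 120 CPM in sham skin, 112, 40.7, 93.4 and 159 in FLASH, and 139, 303 and 14.4 in CONV. Both genes had overlapping groups, and CONV 3 was their lowest library. Lce1b spanned 73.2 to 147 CPM in sham skin, 58.6 to 139 in FLASH and 12.2 to 270 in CONV. Lce1a1 spanned 54.6 to 118 CPM in sham skin, 46.4 to 115 in FLASH and 11.5 to 242 in CONV.

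Lce1 copies were not uniform. Lce1g, singled out after its values were seen, measured 2.37, 3.02 and 7.76 CPM in sham skin, 4.42, 1.46, 28.4 and 60.4 in FLASH, and 35.7, 159 and 6.78 in CONV. The ratio of Lce1g to Lce1m was 0.0202, 0.0201 and 0.0257 in sham skin, 0.0235, 0.0129, 0.349 and 1.26 in FLASH, and 0.376, 1.28 and 2.54 in CONV. Log2 differences of CONV from sham over the 14 Lce1 genes ran from -1.36 (Lce1m) to 3.93 (Lce1g), with 12 above 0 and a median of 1.24. Without CONV 2, 7 of the 14 were above 0 and the median was -0.03. Only 41.2% to 86.8% of the 31-base words of the 13 genes other than Lce1m were unique to them, so kallisto divided shared reads between copies and the split is uncertain.

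The 6 Lce3 genes together held 0.338, 1.13 and 0.862 CPM in sham skin, 0.264, 0.15, 2.82 and 33.9 in FLASH, and 33.7, 311 and 22.1 in CONV. Every CONV library was above every sham library for each of the 6 genes, and FLASH 4 was at the level of CONV 1. Only 39.7% (Lce3d) to 73.3% (Lce3b) of their 31-base words were unique, so the split of reads between these copies is uncertain. Lce3c, given as an example because its promoter is shown, measured 0.263, 0.526 and 0.638 CPM in sham skin, 0.264, 0.075, 2.12 and 10.8 in FLASH, and 12.5, 84.4 and 6.43 in CONV. Lce3e had no count in sham skin, and its level pooled over the CONV libraries was at least 547-fold higher than that of 3 counts over the sham group. It measured 6.6, 54.8 and 1.22 CPM in CONV, so the bound does not hold for each library. Adjusted p-values of the 6 genes were 0.135 to 0.184 for CONV against sham (edgeR) and 0.0823 to 0.188 for CONV against the other 7. Lce6a, the last Lce gene, measured 3.12 to 9.13 CPM in sham skin, 3.04 to 13 in FLASH and 1.90 to 11.9 in CONV. It overlapped between all groups.

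SPRR proteins act as flexible bridges between other envelope proteins. Sprr1a was present in every library, with 25.9, 200 and 58.3 CPM in sham skin, 45.6, 35.8, 233 and 468 in FLASH, and 515, 410 and 255 in CONV. Each CONV library was above each sham library, sham 2 was near the lowest CONV library, and the log2 difference was 2.05 ± 1.04 (edgeR adjusted p = 0.297). Sham 2 was also the sham library highest in the hair shaft and inner root sheath markers, whose part in Sprr1a was not tested. Sprr1b, its close relative, measured 0, 1.52 and 0.415 CPM in sham skin, 0, 0.075, 8.07 and 87.2 in FLASH, and 94.7, 161 and 50.2 in CONV. FLASH 4 lay within the CONV range and FLASH 1 and FLASH 2 within the sham range. Its log2 difference of CONV from sham was 7.25 ± 2.60 (edgeR adjusted p = 0.187) and that of CONV from the other 7 was 2.87 ± 1.82 (adjusted p = 0.358), or 5.91 without FLASH 4, where it passed the test.

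Sprr2a1, Sprr2a2 and Sprr2a3 are near-identical copies that kallisto could hardly tell apart, since 3.06%, 2.17% and 26.4% of their 31-base words were unique. Their sum was 7.81, 21.9 and 61.1 CPM in sham skin, 13, 15.3, 57.8 and 1060 in FLASH, and 330, 1270 and 82.0 in CONV. Most of it was assigned to Sprr2a2, with 5.74, 19.2 and 51.8 CPM in sham skin, 10.7, 12.8, 49.8 and 1010 in FLASH, and 316, 1210 and 76.2 in CONV. FLASH 4 was close to CONV 2 and the other FLASH libraries were within the sham range. The log2 difference of Sprr2a2 from sham was 4.38 ± 1.95 in CONV (edgeR adjusted p = 0.25) and 3.41 in FLASH, where it was -0.07 without FLASH 4.

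The other 10 Sprr2 genes together held 0, 1.22 and 0.606 CPM in sham skin, 0, 0.075, 3.54 and 33.6 in FLASH, and 38.9, 181 and 57.0 in CONV. Unlike Lor, Flg2 and the summed Lce1 genes, this sum was higher in CONV 3 than in CONV 1. Sprr2d, Sprr2e, Sprr2g and Sprr2j-ps had no count in sham. Against 3 counts over the sham group, their levels pooled over the CONV libraries were at least 900-fold, 150-fold, 175-fold and 65.2-fold higher. The bounds hold for the pooled level and not for each library. Sprr2d measured 9.2, 71.0 and 16.4 CPM in CONV, and Sprr2e 1.11, 8.25 and 5.53. Sprr2f had 2 counts over the sham group, and its CONV to sham ratio was 288 (95% counting interval 79.3 to 2390, counting error only). Sprr2f also had the smallest adjusted p of the list for CONV against the other 7 (log2 difference 5.59 ± 1.27, edgeR adjusted p = 0.0543). It measured 0.496, 14.7 and 5.02 CPM in CONV, and CONV 1 lay below FLASH 4, at 0.82 CPM. Sprr2f was outside the limit of 1 CPM in 3 libraries.

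Sprr4 and Sprr3 differed from the Sprr2 genes. Sprr4 measured 4.77, 6.75 and 3.32 CPM in sham skin, 5.44, 3.07, 9.33 and 16 in FLASH, and 17.9, 2.32 and 5.14 in CONV, with overlapping groups. Its log2 difference of CONV from sham was 0.77 ± 0.76 (edgeR adjusted p = 0.575), and -0.40 without CONV 1. Sprr3, known from internal stratified epithelia, did not exceed 0.152 CPM in any skin library.

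Tgm1 and Tgm3 encode transglutaminases, the enzymes that join envelope proteins. Tgm1 measured 57.3, 101 and 94.9 CPM in sham skin, 70.9, 49.7, 114 and 134 in FLASH, and 154, 260 and 91.9 in CONV. CONV 1 and CONV 2 were above all others, and CONV 3 was within the sham range. The log2 difference of CONV from the other 7 was 0.92 ± 0.35 (edgeR adjusted p = 0.155). Tgm3 measured 33.8, 98.0 and 33.1 CPM in sham skin, 30.4, 26.4, 132 and 127 in FLASH, and 289, 159 and 41.3 in CONV. Tgm3 is also known in the hair follicle. Summed CPM of 16 hair shaft and inner root sheath markers was 15.4, 9190 and 1130 in sham skin, 16.1, 404, 13300 and 8690 in FLASH, and 11600, 660 and 4620 in CONV. Among sham libraries Tgm3 was highest in sham 2, where those markers were highest. Their part in the result was not tested.

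Casp14 encodes caspase-14, which takes part in filaggrin breakdown. It measured 78.7, 86.5 and 148 CPM in sham skin, 80.6, 64.6, 298 and 323 in FLASH, and 349, 585 and 31.7 in CONV. The same 4 libraries were high as for Flg (FLASH 3, FLASH 4, CONV 1 and CONV 2), and CONV 3 was lowest. Its log2 difference of CONV from sham was 1.62 ± 0.94 (edgeR adjusted p = 0.351), and 0.87 without CONV 2.

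Klk5 and Klk7 encode the kallikreins that cut corneodesmosomes, the junctions of the horny layer. Klk7 measured 329, 280 and 323 CPM in sham skin, 334, 200, 258 and 411 in FLASH, and 397, 520 and 193 in CONV. Klk5 measured 44.2, 46.1 and 75.6 CPM in sham skin, 59.0, 48, 58.6 and 51.5 in FLASH, and 56.2, 127 and 12.9 in CONV. Both overlapped between all groups, and their log2 differences of CONV from sham were smaller than their SE.

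Stefin A proteins are cysteine protease inhibitors, some of which become part of the envelope; mice have several copies. Stfa3 measured 0.563, 0.664 and 2.36 CPM in sham skin, 0.692, 0.975, 36.7 and 123 in FLASH, and 83.2, 283 and 60.6 in CONV. Stfa1 measured 0.0751, 0.083 and 0.415 CPM in sham skin, 0.033, 0.15, 3.99 and 24.7 in FLASH, and 15.0, 61.9 and 27.5 in CONV. For both genes, all CONV libraries, FLASH 3 and FLASH 4 were above every sham library. Stfa2 measured 0, 0.221 and 0.0958 CPM in sham skin, 0, 0, 1.46 and 10.7 in FLASH, and 9.39, 41.1 and 2.76 in CONV.

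The log2 differences of CONV from sham were 6.89 ± 2.02 for Stfa3, 7.47 ± 2.17 for Stfa1 and 7.25 ± 2.40 for Stfa2 (edgeR adjusted p = 0.144, 0.143 and 0.167). All 31-base words of Stfa3 were unique, against 56.2% of those of Stfa1 and 66.7% of those of Stfa2, whose values are less certain. Stefin A genes are also known in neutrophils. Summed CPM of the neutrophil marker list was 21.6 to 23.4 in sham skin, 26.6, 21.3, 22.8 and 97.5 in FLASH, and 159, 595 and 598 in CONV. Of its 8 tested genes, 3 were called higher in CONV against the other 7. FLASH 3 had 42.1 CPM of the 3 stefins, and its mean log2 CPM over the neutrophil markers was -0.53, against -1.22 to -0.92 in the sham libraries, FLASH 1 and FLASH 2. CONV 3 had 90.9 CPM of the stefins with a neutrophil sum as high as that of CONV 2, which held 386 CPM. The part of neutrophils in the stefin values was not tested.

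The makeup of the set was compared by TPM, as a share of the summed TPM of the 52 genes. Lce genes made up 48.4%, 41.0% and 48.1% in sham skin, 57.1% and 44.5% in FLASH 1 and FLASH 2, 19.7% and 21.4% in FLASH 3 and FLASH 4, and 19.7%, 20.3% and 13.7% in CONV. Loricrin and involucrin together made up 5.24% to 7.50% in sham skin, 1.43% to 7.17% in FLASH and 0.747% to 2.06% in CONV. Sprr genes made up 4.91%, 17.1% and 5.0% in sham skin, 4.77%, 6.4%, 8.93% and 31.8% in FLASH, and 19.7%, 13.4% and 42.8% in CONV. The stefins made up 0.113% to 0.241% in sham skin, 0.089% and 0.236% in FLASH 1 and FLASH 2, 2.47% and 6.30% in FLASH 3 and FLASH 4, and 4.36% to 17.3% in CONV. Shares sum to a fixed total, so a higher share of Flg, Sprr or stefin genes lowers the others, and Lor itself differed little in CPM outside CONV 3.

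**Figure D4:**
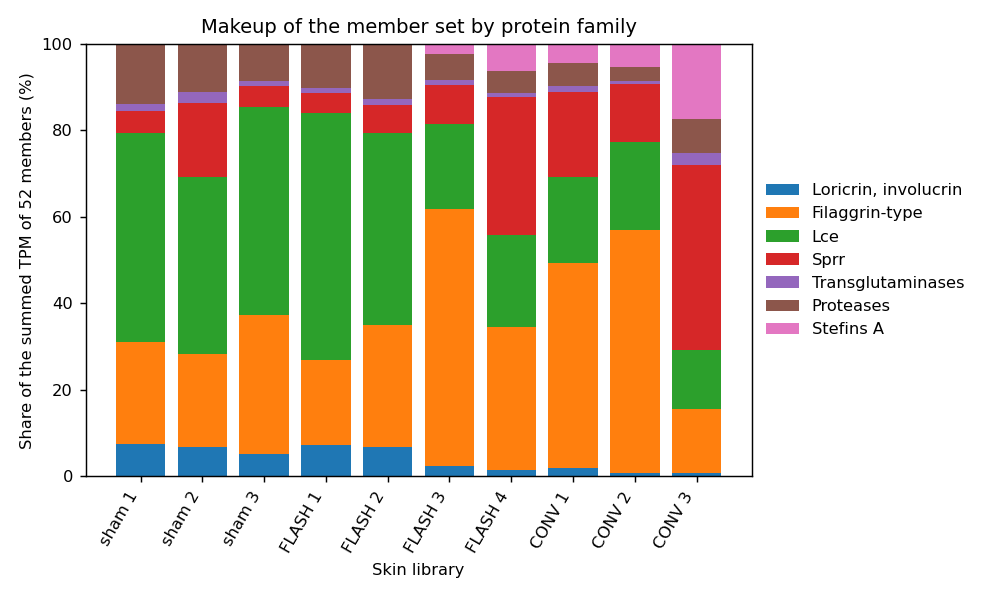
Share of the summed TPM of the 52 genes taken by each protein family in each skin library, as stacked bars from 0 to 100%. Lce genes take 41.0% to 57.1% in sham, FLASH 1 and FLASH 2 and at most 21.4% in the other 5 libraries, and Sprr and stefin genes take the largest shares in CONV 3. By CPM per kilobase of the longest transcript the Lce gap closes, with 46.0% in CONV 2 and 44.0% in sham 2.

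In CONV against FLASH, 4 of the 50 genes were higher in every CONV library than in every FLASH library, as were 4.73% of all genes; the 4 were Lce3b, Sprr2h, Sprr2i and Sprr2k. None was lower in every CONV library, as 3.6% of all genes were. The fold change was above 0 for 45 of the 50 (50.5% of all genes) and the median log2 fold change was 1.21, or 0.21 without CONV 2 and 2.02 without FLASH 4. In CONV against the other 7, the same 4 genes were higher in every CONV library (3.85% of all genes) and none was lower in every one (2.62%). The fold change was above 0 for 47 of the 50 (50.4% of all genes), and the median was 1.63, with family medians of 4.36 for Lce3, 3.36 for Sprr, 3.04 for the stefins, 0.95 for Lce1 and 0.28 for the proteases. Without CONV 2 the fold change was above 0 for 33 genes with a median of 0.46, and the family medians were 2.28, 2.69, 1.76, -0.33 and -0.05 in the same order. Without FLASH 4 the median was 2.32, and the family medians were 8.24, 6.17, 5.44, 1.18 and 0.37. With files read by library name instead, FLASH against sham separated 4 of the 50 genes (Lce3a, Stfa1, Stfa3 and Sprr2a1, all higher) against 3.79% of all genes, and still called none.

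**Figure D5:**
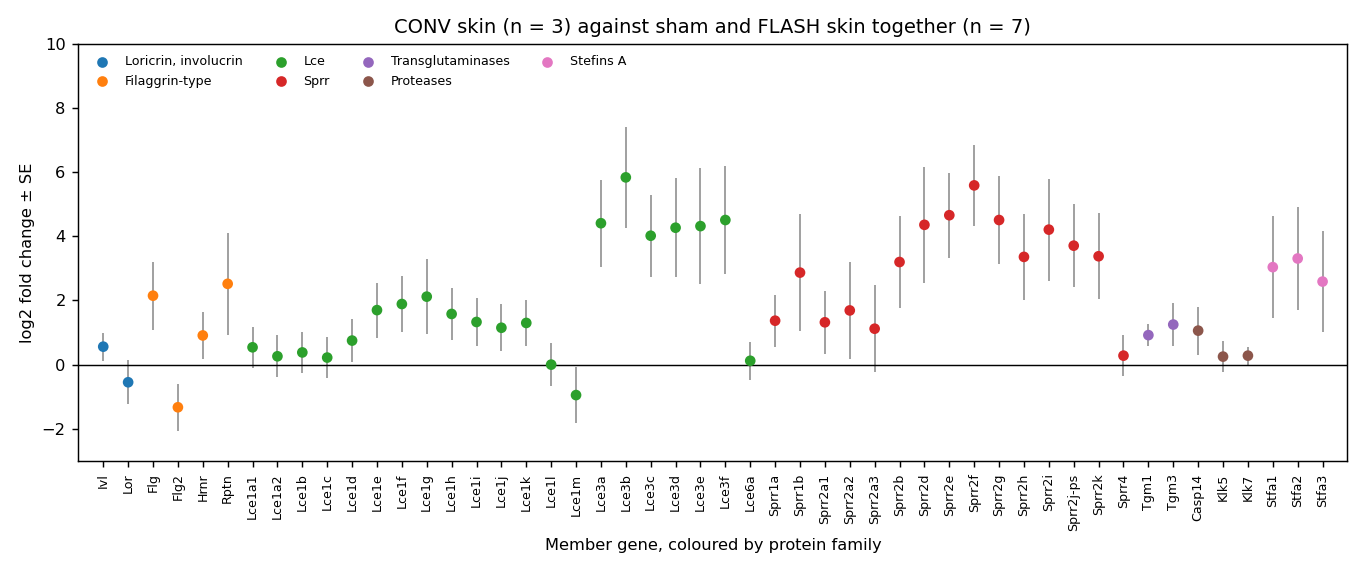
Log2 fold change with its SE (edgeR) of the 50 tested genes, CONV skin (n = 3) against sham and FLASH skin together (n = 7), grouped and coloured by protein family. None passed the threshold; the Lce3, Sprr2 and stefin points lie between 1.12 and 5.84, and Lor, Flg2 and Lce1m lie below 0.

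The 25 other annotated genes within the span on chromosome 3 gave 13 tested genes, and none was called in CONV against sham. Among them, Kprp, which encodes a keratinocyte proline-rich protein, measured 214 to 446 CPM in sham skin, 192 to 334 in FLASH and 31.5 to 283 in CONV, low in CONV 3 as Lor was. Crnn, which encodes cornulin, measured 0.3, 57.8 and 5.08 CPM in sham and 100, 3.13 and 24.5 in CONV. Both were singled out after their values were seen.

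Lists of related genes were counted in the same fits. All 4 injury keratin genes had fold changes above 0 in CONV against sham, none was called, and their median log2 fold change was 6.99 (0.01 over all genes). Krt16, a keratin of wounded epidermis, measured 5.89, 14.3 and 15.8 CPM in sham skin, 11.1, 8.40, 193 and 2540 in FLASH, and 2510, 8920 and 1260 in CONV. Krt6a, whose protein pairs with it, measured 42.7, 120 and 84.9 CPM in sham skin, 78.4, 61.4, 445 and 2560 in FLASH, and 2720, 6050 and 2650 in CONV.

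Of 9 suprabasal and basal keratin genes, 5 had fold changes above 0 in CONV against sham, with a median of 0.54, and none was called. Krt10, the main suprabasal keratin, measured 2400 to 3660 CPM in sham and 294 to 9130 in CONV, and Krt14, its basal counterpart, 738 to 1570 in sham and 2730 to 18400 in CONV. Of 23 envelope scaffold and corneodesmosome genes, 15 were above 0 (median 0.44) and none was called. Krtdap and Dmkn, which encode secreted keratinocyte proteins, had log2 differences of CONV from sham of -0.60 ± 0.39 and -0.19 ± 0.59. Of 15 lipid barrier genes, 12 were above 0 (median 0.37), none called, and Elovl4, which elongates barrier fatty acids, differed by 0.60 ± 0.36.

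In CONV against the other 7, where 1.58% of all genes were called higher, 1 of 18 filaggrin processing and desquamation genes, 2 of 12 S100 genes, 1 of 21 differentiation transcription factors and 1 of 7 further stefin copies were called higher and none lower. These were Ctsl, which encodes the protease cathepsin L (log2 difference 1.16, edgeR adjusted p = 0.0474), S100a4 and S100a6, which encode calcium-binding proteins (1.44 and 0.81, both adjusted p = 0.0474), and Junb, an AP-1 subunit (1.53, adjusted p = 0.0474). Junb measured 94.1, 86.3 and 63.5 CPM in sham skin, 40.2, 40.1, 83.5 and 112 in FLASH, and 148, 284 and 212 in CONV. Stfa2l1, a stefin copy, had no count in sham and measured 0.954, 6.92 and 4.57 CPM in CONV (log2 difference from the other 7 of 6.03 ± 1.04, adjusted p = 0.0352). Ctsl, S100a4 and S100a6 are also expressed in fibroblasts or macrophages, and stefin A genes in neutrophils. In the same comparison 4 of 6 fibroblast markers, 1 of 6 macrophage markers and 3 of 8 tested neutrophil markers were called higher. The part of these cells in the values was not tested. This comparison called no gene at all when any 1 sham library, FLASH 1, FLASH 2 or FLASH 3 was left out or with a hair shaft or basal keratinocyte score as a covariate, and 1 gene without CONV 3.

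Muscle of the same limb held almost none of these transcripts. Of the 52 genes, 35 had no count in any of the 10 muscle libraries, and the summed level was 1.05 to 4.17 CPM, against 1625 to 25450 CPM in skin. Muscle and skin were in different labelled batches, so tissue and batch cannot be told apart.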

How the data were processed

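RNA was measured in 10 skin and 10 muscle libraries made from total RNA with a stranded kit after ribosomal RNA removal, per the labels. Per the submitters' processing notes, the authors used kallisto (version given as 0.5.0) and the build mm10; no annotation release is given in the sources used. Each deposited file gives, per transcript, an estimated count, which the authors did not normalize, and a TPM, which the authors' tool scales for length and library size. kallisto divides shared reads between transcripts, so near-identical copies are uncertain.

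From these files, transcripts were matched to genes in GENCODE M21, estimated counts were summed per gene and rounded, and TPM were summed. Transcripts without a match held 0.8725% to 1.847% of skin counts and were left out. edgeR 4.0.16 in R 4.3.3 (TMM scaling, filterByExpr by group, robust quasi-likelihood test) was fitted to all 10 skin libraries, with adjustment over all genes tested. CPM are TMM scaled, and SE is the log2 fold change over the square root of F. A level of 0 was replaced by a floor of 3 counts over the group for fold bounds, and intervals are at 95%. The tests were checked on simulated counts. Alternatives were other scalings, no filter, DESeq2 1.42.0, files by library name, leaving libraries out, a replicate block and covariates.

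The genes and lists were chosen with earlier results of these data known. Named singly were the 14 genes listed by name, the 4 Sprr and 4 Lce genes with the highest mean TPM, and any called gene; of each related list, up to 3 called genes or otherwise the 2 with the highest TPM. Protein sequences were not used here.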

Additional observations from a re-analysis of the deposited data

Results flagged for a closer look

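Among named genes, a library was singled out in a group of 4 if its gap to the nearest library exceeded 0.83 of the group's range. This is Dixon's 95% limit, computed by simulation, which chance exceeds in about 1 in 20 groups of normally distributed values. The rule was applied to CPM without log scaling, and these values are skewed, so that rate may not hold here. Only the FLASH group has 4 libraries, and 6 of 22 named genes met this rule in skin. For 5 of them the library was FLASH 4, which is not an independent event for each gene: Rptn at 373 CPM (other FLASH libraries 2.25 to 23.1), Sprr2a2 at 1010 CPM (10.7 to 49.8), Sprr1b at 87.2 CPM (0 to 8.07), Stfa1 at 24.7 CPM (0.033 to 3.99) and Stfa2 at 10.7 CPM (0 to 1.46). For Lor the library was FLASH 1, at 346 CPM against 181 to 208, and the file of FLASH 1 carries the library name of a sham library.

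In muscle, which the comparisons above do not use, 2 genes exceeded 1 CPM in a library and lay above the sham muscle libraries. Tgm3 measured 1.02 CPM in FLASH 1 and 1.23 CPM in FLASH 3, against 0.382 to 0.509 in sham; the 3 CONV muscle libraries, at 0.989, 0.724 and 0.572 CPM, also lay above sham. The muscle files of FLASH 2 and FLASH 3 carry the names of sham libraries, and those of sham 2 and sham 3 the names of FLASH libraries. That of FLASH 1 carries the name of another FLASH library. Read by name, sham muscle held 0.382, 0.349 and 1.23 CPM of Tgm3. Under that reading neither FLASH 1 nor the CONV libraries lay above all sham libraries. Sprr1a measured 1.63 CPM in FLASH 4, against 0 to 0.0897 in sham.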

How the results depend on the processing

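The number of called genes of the list was 0 in each comparison in the main analysis. It was also 0 in all comparisons with RLE size factors, library size alone, no filter on low counts (which tests all 52 genes), files assigned by library name, without the 2 libraries of disagreeing name, and with a hair shaft or basal keratinocyte score as covariate, or with only the groups compared where that applies. DESeq2 called 15 for CONV against sham, 1 for FLASH against sham (Sprr2d, with no count in sham), 0 for CONV against FLASH and 1 for CONV against the other 7 (Lce3c). Leaving out single libraries gave 0 to 3 called genes for CONV against sham (3 without FLASH replicate 4: Lce3f, Sprr2i and Sprr2k), 0 to 20 for CONV against the other 7 (20 without FLASH replicate 4, 1 without CONV replicate 1) and 0 for the other 2 comparisons. Over all genes, CONV against the other 7 called 331, with 0 to 1454 leaving out single libraries (1454 without FLASH replicate 4), 105 with library size alone, 0 with either score as covariate and 1292 with the replicate block; CONV against sham called 0, with 0 to 406 leaving out single libraries (406 without CONV replicate 1). Of 52 printed log2 fold changes over 1023 alternative fits, 1005 kept direction and side of the threshold, 15 newly passed it and 3 changed sign. The 3 were Sprr4 for CONV against sham (-0.40 to 1.21 leaving out single libraries, -0.40 without CONV replicate 1), Sprr2a2 for FLASH against sham (-0.07 to 4.44, -0.07 without FLASH replicate 4) and Lce1d for CONV against the other 7 (-0.24 to 1.26, -0.24 without CONV replicate 2). The causes were not tested. Depth limits the fold of genes with no count in sham, such as Lce3e and Sprr2d, to a lower bound.

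With the replicate number as a block, 1 gene was called for CONV against sham (Sprr2i), 20 for CONV against the other 7, and 0 for FLASH against sham and for CONV against FLASH. The labels do not say whether a number pairs samples. Of 9 same-number pairs, 3 had deviations correlated above 0.1, over a range of -0.711 to 0.517. Different-number pairs also varied widely, such as -0.687 for sham 1 with FLASH 3 and 0.667 for sham 2 with FLASH 3. These correlations therefore cannot decide whether same-number libraries shared a litter or day.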
